A study of Homo sapiens with 10 samples.

Results

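The genes described here are the measured genes of one stretch of the long arm of chromosome 1, with starts from 180 to 240 Mb in GRCh38. Of the 13920 genes counted in this series, 263 started in the stretch, and 4 of them (LAMB3, LAMC1, SNRPE and RPS6KC1) were left out because the choice excluded symbols that begin with RPL, RPS, LAM or SNRP. The remaining 259 genes all code for protein. The NCBI gene table lists 360 coding genes there, and the authors had kept only genes with a count above 0 in every library. RPS6KC1 was excluded by its prefix alone and does not encode a ribosomal protein. The stretch was picked because its genes were lower in the SAMHD1-KO clones than in wild-type (WT) spheroids of experiments 15 and 16 and for the shift between the experiment pairs. These values are therefore descriptions and carry no test.

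RNA was sequenced on day 4 from spheroids of cells labelled T47D, a human line from a luminal breast carcinoma, in 10 libraries. WT cells and the SAMHD1-KO clone A1 were each sequenced in experiments 10, 11, 15 and 16, and the SAMHD1-KO clone A2 in experiments 15 and 16. Both knock-outs had been made with CRISPR-Cas9 against exon 5 of SAMHD1, which encodes a phosphohydrolase that breaks down deoxynucleotides, and each is a single clone. The study's methods call the RNA samples biological duplicates, and p-values here measure the spread between such libraries, not between independent clones. Total counts per library ranged from 40077369 to 51311482.

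SAMHD1 was lower in all KO libraries than in WT. WT had 53.9, 55.7, 49.8 and 56.4 CPM (experiments 10, 11, 15 and 16). Clone A1 had 22.5 and 23.0 CPM in experiments 10 and 11 but 6.44 and 6.15 CPM in experiments 15 and 16, and clone A2 had 23.6 and 20.2 CPM. The labelled cell type was only partly met by its markers. Of 9 genes fixed for luminal breast epithelium, KRT19 was not among the counted genes. KRT8 had 3.10 to 9.07 CPM, EPCAM 0.348 to 1.78, CDH1 0.684 to 2.16 and ESR1 0.183 to 1.59 CPM over the 10 libraries, while KRT18 had 36.3 to 60.3, GATA3 15.4 to 24.8, FOXA1 14.1 to 26.8 and PGR 15.4 to 20.7 CPM. Of the other cell types checked, 1 of 5 fibroblast genes (COL1A1, 5.91 to 11.4 CPM), 1 of 3 endothelial genes (VWF, 0.799 to 1.69 CPM) and 2 of 4 blood cell genes (CD68, 1.23 to 2.12 CPM, and CD14, 0.206 to 0.816 CPM) were counted.

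Genes that lie side by side on a chromosome mostly have unrelated jobs, and are often switched on and off by separate promoters. What they share is the DNA molecule they sit on, so they are present in the same number of copies unless a break falls between them. Gain of the long arm of chromosome 1 is one of the common chromosome changes in breast carcinoma. No DNA of these cells was examined. Near the far end of the stretch, ARF1 encodes a small GTPase of the Golgi that, in its GTP-bound form, recruits the COPI coat to membranes and so drives vesicle traffic.

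The promoters of ARF1 and of its nearest neighbours with a sequence entry are shown first, because these genes lie close together and yet their fold changes differed widely. By the lower coordinate of each gene, WNT3A lies 75.7 kb before ARF1 and MRPL55 24.0 kb after it. MRPL55 is read on the minus strand, so its promoter lies at its other end. Each sequence is the 250 bases before the start of the gene in RefSeq (GRCh38.p14), read 5′ to 3′ on the strand of the gene, and capitals mark GGGCGG, a motif of GC-rich promoters, or its reverse complement. WNT3A (chr1:228006748-228006997, plus strand), ARF1 (chr1:228082458-228082707, plus strand) and MRPL55 (chr1:228109300-228109549, minus strand) have these bases.
WNT3A: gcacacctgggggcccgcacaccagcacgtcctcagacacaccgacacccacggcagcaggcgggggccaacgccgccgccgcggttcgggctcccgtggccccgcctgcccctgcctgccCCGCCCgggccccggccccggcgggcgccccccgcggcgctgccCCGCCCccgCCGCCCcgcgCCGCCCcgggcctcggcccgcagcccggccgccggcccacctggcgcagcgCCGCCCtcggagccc
ARF1: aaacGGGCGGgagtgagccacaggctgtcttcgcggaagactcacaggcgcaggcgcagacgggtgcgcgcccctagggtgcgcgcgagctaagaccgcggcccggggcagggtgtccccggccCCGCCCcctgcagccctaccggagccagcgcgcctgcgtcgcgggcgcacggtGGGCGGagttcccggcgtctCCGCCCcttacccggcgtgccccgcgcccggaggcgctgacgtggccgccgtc
MRPL55: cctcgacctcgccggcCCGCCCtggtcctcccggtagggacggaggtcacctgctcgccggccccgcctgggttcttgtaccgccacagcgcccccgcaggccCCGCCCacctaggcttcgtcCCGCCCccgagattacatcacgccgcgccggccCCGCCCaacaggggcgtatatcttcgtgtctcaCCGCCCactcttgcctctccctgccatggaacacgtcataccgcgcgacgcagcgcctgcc
The ARF1 window held GGGCGG at 4 places, WNT3A and MRPL55 at 5 each. The C1orf35 gene lies between ARF1 and MRPL55. Over the 223 members with a promoter entry, GGGCGG was present on either strand within the 250 bases in 68.61% of promoters, against 67.17% of the 11366 counted genes with an entry and 42.31% of all promoters in the table. For CCAAT the shares were 34.08% of members and 34.94% of counted genes. For CCGGAAG they were 10.76% and 15.13%, for CACGTG 9.87% and 9.02%, and for TATAAA 6.28% and 5.54%. TGACGTCA was in 1.35% and 2.85%, and the NRF1 motif in 2.24% and 1.93%. The median fold change in clone A1 was −0.24 on the log2 scale for members with GGGCGG and −0.22 for those without, and in clone A2 it was −0.27 and −0.22. Members with and without the motif therefore had medians on the same side of 0 in both clones. The GC content of the whole promoter entry had the same median of 65.3% in members and in all counted genes.

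The first question is how the expression of these 259 genes compared between clones and WT in each library. The level of a library was taken as the median over the members of log2 CPM minus the mean of the gene over all 10 libraries, where CPM is the count scaled to a common library size after TMM normalization and 0 is the average library. WT had levels of 0.21 and 0.13 in experiments 10 and 11. Clone A1 had 0.23 and 0.22 there. In experiments 15 and 16, WT had 0.0023 and 0.043, clone A1 −0.21 and −0.17, and clone A2 −0.24 and −0.21. The 10 libraries thus stood on 3 steps, with the 4 libraries of experiments 10 and 11 highest, WT of experiments 15 and 16 between, and the 4 later KO libraries lowest, with no overlap between the steps. The SD within a group of 2 libraries, pooled over the 5 groups, was 0.034, and the largest difference between 2 libraries of a group was 0.087, in WT of experiments 10 and 11. All counted genes together had levels between −0.0065 and 0.0078. In bulk RNA, a lower level in every cell and a lower share of cells with the higher level cannot be told apart.

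**Figure D1:**
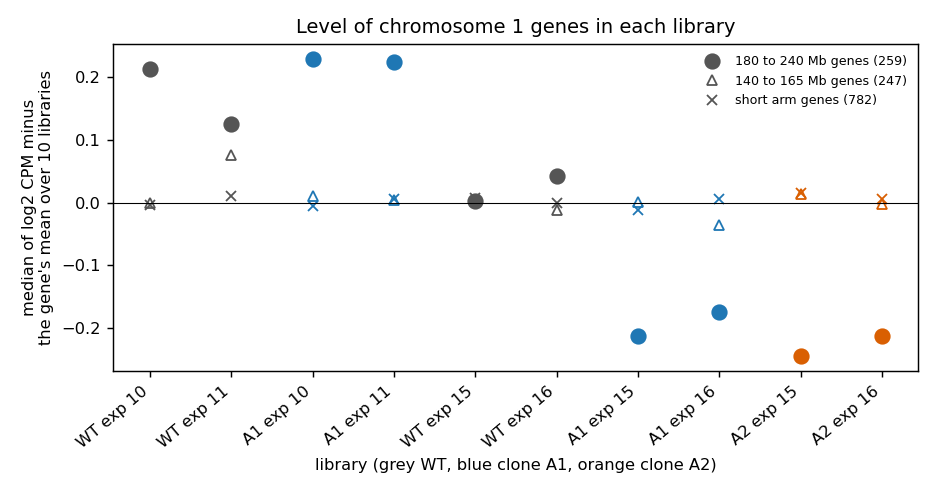
Level of 3 groups of chromosome 1 genes in each of the 10 libraries, as the median over genes of log2 CPM minus the mean of the gene over all libraries (vertical axis, log2 units). Filled circles are the 259 genes from 180 to 240 Mb, triangles 247 genes from 140 to 165 Mb and crosses 782 genes of the short arm. The circles stand on 3 steps, from 0.13 to 0.23, from 0.0023 to 0.043 and from −0.24 to −0.17, while the crosses stay between −0.012 and 0.016 and the triangles between −0.036 and 0.076, highest in WT of experiment 11.

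The members took 2.00% and 1.88% of all counts in WT of experiments 10 and 11, and 2.05% and 2.04% in clone A1. In experiments 15 and 16 they took 1.71% and 1.78% in WT, 1.43% and 1.52% in clone A1, and 1.46% and 1.51% in clone A2. The shares of the raw counts followed the same steps as the levels. Mitochondrial genes took 7.79% to 8.48% of the counts in experiments 10 and 11 and 9.05% to 13.9% in experiments 15 and 16. The part of this difference in the result was not tested.

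In experiments 15 and 16 the median log2 fold change of the members was −0.23 in clone A1 against WT, a fold of 0.854, and −0.25 in clone A2, a fold of 0.838, beside 0.0031 and 0.0071 over all counted genes. It was below 0 for 231 of 259 members in clone A1 and for 230 in clone A2. By edgeR's quasi-likelihood test with Benjamini-Hochberg adjustment over all 13920 genes at 0.05, 66 members were called lower and 2 higher in clone A1, where 4.29% of all genes were called lower and 3.95% higher. In clone A2, 105 were called lower and 6 higher, beside 9.07% and 7.33% of all genes. Blocked by experiment number (the replicate block), 120 members were called lower in clone A1, and these included all 66, while 8.99% of all genes were called lower in the same fit. Leaving out WT of experiment 15 or of experiment 16 left 22 lower calls in clone A1, and leaving out clone A1 of experiment 15 or 16 left 25 or 38, where 1.14% to 1.75% of all genes were called lower. In clone A2, 56 lower calls were left without WT of experiment 16, and 57 or 61 without clone A2 of experiment 15 or 16, where the shares of all genes were 5.31%, 5.89% and 4.20%. The medians of the members stayed between −0.25 and −0.20 in clone A1 and between −0.28 and −0.23 in clone A2 with any library left out. All 4 KO libraries lay below both WT libraries for 166 members, where 17.4% of all genes did so, and above both for 8, where 18.0% did. As the stretch was chosen for these contrasts, these counts describe it and test nothing.

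The fold changes of the members were spread about as widely as those of all counted genes, around a lower median. In clone A1, 168 of the 259 members lay within 0.15 of the members' median, and 158 did in clone A2. The interquartile range was 0.20 in clone A1 and 0.23 in clone A2, against 0.23 and 0.28 over all counted genes, with a median SE of 0.091 and 0.090 per gene. The median was −0.20 for the 86 members in the lowest class of mean CPM, −0.21 in the middle class and −0.25 in the highest class in clone A1. In clone A2 these medians were −0.18, −0.28 and −0.28. Across members, mean log2 CPM and fold change had a Spearman rho of −0.056 in clone A1 and −0.17 in clone A2. The length of the gene had a rho of 0.16 and 0.030, and the GC content of its promoter, over 223 members, 0.021 and −0.098. These are correlations across genes, which share the same libraries.

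By position, the lower values began before the stretch and ended a little beyond it. In steps of 5 Mb, the median in clone A1 was 0.042 from 160 to 165 Mb, −0.094 from 165 to 170 Mb, −0.19 from 170 to 175 Mb and −0.22 from 175 to 180 Mb. Clone A2 had 0.048, −0.14, −0.18 and −0.24 in the same steps. The 247 genes from 140 to 165 Mb had medians of −0.0044 and 0.0057, and the 782 genes of the short arm −0.0034 and 0.015. The change along the chromosome thus fell between 165 and 175 Mb in both clones. Within the stretch, the 44 genes from 180 to 200 Mb had medians of −0.18 and −0.19, the 108 genes from 200 to 220 Mb −0.20 and −0.21, and the 107 genes from 220 to 240 Mb −0.26 and −0.30. From 240 to 245 Mb, 18 genes still had medians of −0.20 and −0.21, while 19 genes beyond 245 Mb had −0.030 and 0.046. A running median over 15 genes stayed below 0 in clone A1 and in clone A2 at all 263 places of the stretch, between −0.34 and −0.044 in clone A1. In clone A2 it lay between −0.41, at COA6 (234.4 Mb), and −0.13, at MR1 (181.0 Mb).

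**Figure D2:**
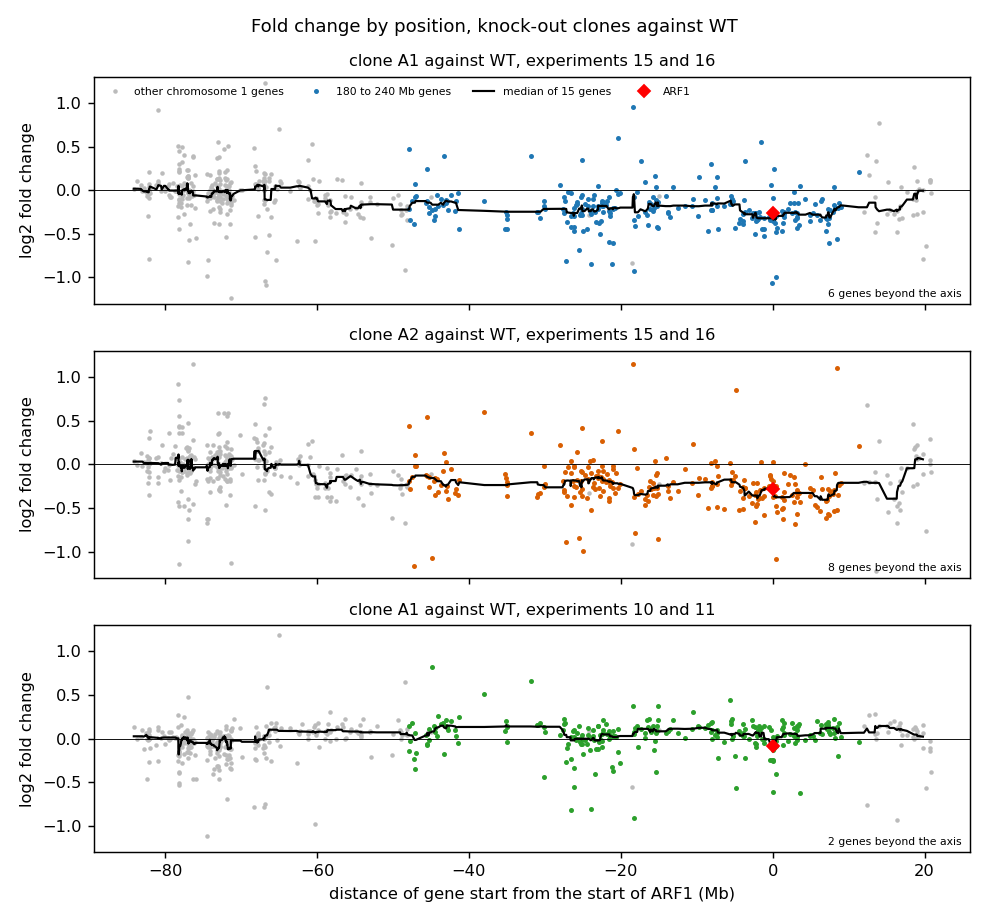
Log2 fold change of each chromosome 1 gene (vertical axis) by the distance of its start from the start of ARF1 (horizontal axis, Mb), for clone A1 and clone A2 against WT in experiments 15 and 16 and, below, for clone A1 in experiments 10 and 11. Coloured points are the 259 genes from 180 to 240 Mb, grey points other genes, the line the median over 15 genes and the diamond ARF1. In experiments 15 and 16 the line drops below 0 in both clones left of the coloured points and returns to 0 right of them, and in experiments 10 and 11 it lies mostly a little above 0.

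At the lower edge of the stretch, the 5 genes just inside it were QSOX1, LHX4, ACBD6, XPR1 and KIAA1614, with log2 fold changes in clone A1 of −0.22, 0.47, −0.34, −0.12 and −0.39 and in clone A2 of −0.19, 0.44, −0.29, −0.14 and −1.16. The 5 genes just outside, SOAT1, FAM163A, TOR1AIP2, TOR1AIP1 and CEP350, had −0.28, −0.91, −0.23, −0.18 and −0.34 in clone A1 and −0.34, −0.67, −0.24, −0.26 and −0.23 in clone A2. The values on both sides were alike, and the limit of 180 Mb does not mark a step in these data. At the upper edge, HEATR1, ACTN2, MTR, RYR2 and CHRM3 inside the stretch had −0.56, −0.20, −0.14, −0.19 and 0.21 in clone A1 and −0.52, −0.35, −0.24, −0.21 and 0.21 in clone A2. FMN2, RGS7, FH and OPN3 outside had −0.25, 0.17, −0.08 and −0.48 in clone A1 and −0.21, −0.20, −0.08 and −0.20 in clone A2. Of the 4 genes left out by symbol, SNRPE had −0.28 and −0.32, LAMC1 −0.08 and −0.11, RPS6KC1 −0.06 and −0.23, and LAMB3, at a mean of 0.707 CPM, −0.84 and −0.92. All 4 were below 0 in both clones.

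ARF1 (NCBI gene 375, chr1:228082708-228099212) was one of the abundant members. WT of experiments 10 and 11 had 712.7 and 739.2 CPM, and 689.2 and 682.8 CPM in clone A1. Later it had 651.4 and 628.1 CPM in WT, 539.8 and 527.3 CPM in clone A1, and 540.1 and 514.8 CPM in clone A2. ARF1 therefore stood on the same 3 steps as the members as a whole, without overlap. Its log2 fold change against WT in experiments 15 and 16 was −0.26 in clone A1 and −0.28 in clone A2, each with an SE of 0.06. The 20 nearest measured neighbours, 10 on each side, had medians of −0.33 and −0.27. Against the median of the neighbours, ARF1 differed by 0.07 in clone A1 and by −0.01 in clone A2, beside an SE of 0.06 for its own fold change. With a library left out the difference in clone A1 reached 0.127 if clone A1 of experiment 16 was dropped and 0.104 if WT of experiment 15 was.

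Among the neighbours before ARF1, COQ8A acts in the synthesis of coenzyme Q. Its levels in experiments 15 and 16 were 101.2 and 100.9 CPM in WT, 72.7 and 67.4 CPM in clone A1, and 66.2 and 68.6 CPM in clone A2. Its log2 fold changes were −0.53 and −0.58. ITPKB, an inositol trisphosphate kinase, had −0.45 and −0.39, PSEN2, a catalytic subunit of gamma-secretase, −0.45 and −0.27, and the kinase CDC42BPA −0.32 and −0.36. The zinc finger gene ZNF678 had −0.31 and −0.25. The SNARE gene SNAP47 had −0.32 and −0.13, and JMJD4, which lies inside it so that their reads may not be told apart, −0.34 and −0.13. Of the 2 Wnt ligands next to ARF1, WNT9A had 0.07 and −0.17 at about 3 CPM. For WNT3A the later WT libraries had 1.46 and 2.28 CPM, against 0.845 and 0.964 CPM in clone A1 and 0.426 and 0.605 CPM in clone A2, with log2 fold changes of −1.06 (SE 0.29) and −1.86 (SE 0.31). WNT3A had the lowest value of all 20 neighbours in both clones, in few reads. STUM, at about 2 to 3 CPM, had 0.55 and 0.03.

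Among the neighbours after ARF1, C1orf35 had −0.34 and −0.28 and MRPL55, a protein of the mitochondrial ribosome, −0.35 and −0.27. TRIM11, a ubiquitin ligase, had −0.37 and −0.37, RNF187, another ligase, −0.29 and −0.25, and IBA57, which acts in mitochondrial iron-sulfur assembly, −0.28 and −0.19. The histone genes H2AC25 and H2BC26 had −0.48 and −0.99 in clone A1 and −0.48 and −1.08 in clone A2, and their reads may be shared with other histone genes of like sequence. GUK1, the guanylate kinase that phosphorylates GMP, stood out, with 126.2 and 106.5 CPM in the later WT libraries, 118.5 and 100.6 CPM in clone A1 and 123.0 and 114.7 CPM in clone A2. Its log2 fold changes were −0.09 and 0.03, and its groups overlapped. GUK1 lies 57.4 kb after ARF1, between genes with values near −0.3.

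**Figure D3:**
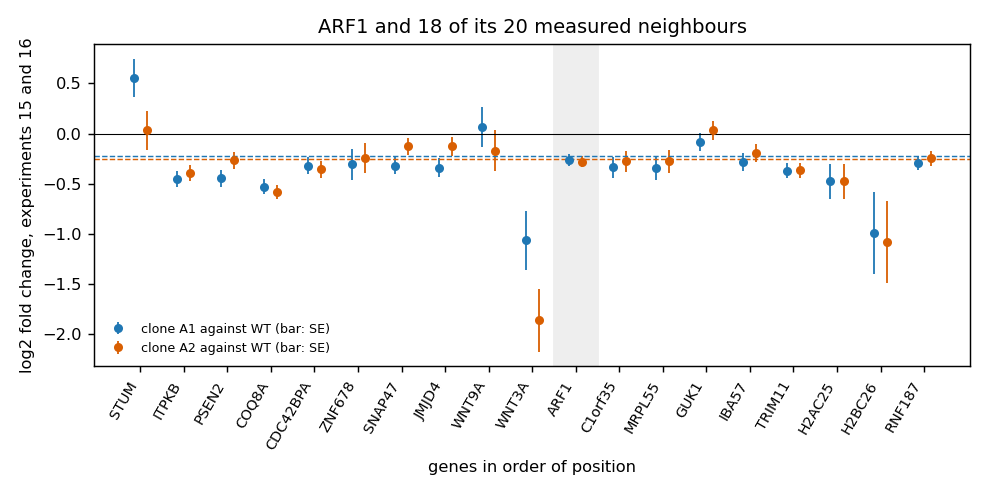
Log2 fold change against WT in experiments 15 and 16 (vertical axis) of ARF1 (shaded) and 18 of its 20 measured neighbours, in order of position, for clone A1 (blue) and clone A2 (orange), with bars for the SE of the fit and dashed lines at the medians of all 259 genes. ARF1 (−0.26 and −0.28) lies close to the dashed lines (−0.23 and −0.25), GUK1 near 0 and WNT3A lowest in both clones (−1.06 and −1.86).

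As a group, genes that work with ARF1 but lie elsewhere in the genome had medians unlike its value. Single genes varied, and no difference from ARF1 was tested. Over 22 such genes, which encode other ARF GTPases, their exchange factors and GTPase-activating proteins, the subunits of the COPI coat and the GGA adaptors, the median was 0.0042 in clone A1 and 0.055 in clone A2. Of the 22 genes, 4.55% were called lower in clone A1 and 9.09% in clone A2, near the 4.29% and 9.07% of all genes. In clone A1 the exchange factor GBF1 was lower (−0.37, adjusted p = 0.0131 by edgeR) and the adaptor GGA2 higher (0.25, adjusted p = 0.0217). GBF1 had −0.22 in clone A2. In the later against the earlier WT, GBF1 (−0.48) and GGA2 (0.30) moved the same way. In clone A2, ARFGAP3 (−0.63, adjusted p = 0.000407 by edgeR) and GGA1 (−0.48, adjusted p = 0.000434) were lower, and GGA2 (0.39, adjusted p = 0.000464) and ARFGAP1 (0.25, adjusted p = 0.0394) higher. ARFGAP3 and GGA1 lie on chromosome 22, where the median of 318 genes was −0.49 in clone A2 and 0.010 in clone A1. The 9 coat subunits ranged from −0.17 (COPE) to 0.42 (COPZ2, at a mean of 1.49 CPM) in clone A1 and from −0.12 (COPE) to 0.59 (COPZ2) in clone A2, and the most abundant, COPA and ARCN1, had 0.02 and 0.01 in clone A1 and 0.05 and 0.07 in clone A2.

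Grouped by their roles, 4 of 5 groups had medians from −0.24 to −0.22 in clone A1 and from −0.32 to −0.22 in clone A2, and the immune group lay nearer to 0 in clone A1 (−0.08). The counts of called genes in each group stand beside 25.5% of all members called lower in clone A1 and 40.5% in clone A2, and 4.29% and 9.07% of all genes. Every group is made of members, so a share near that of all members says nothing about the group, and no difference between groups was tested. Of 19 listed genes for vesicle traffic and the Golgi, 18 were measured (GOLT1A was not among the counted genes), all 18 lay below 0 in both clones, and the medians were −0.23 and −0.22. Of these, 5 were called lower in clone A1 and 6 in clone A2, 27.8% and 33.3% of the group beside 25.5% and 40.5% of all members, among them ARF1, RAB4A, ACBD3 and SRP9. SRP9, a subunit of the signal recognition particle, had 314.6 and 331 CPM in the later WT, 261.5 and 278.0 CPM in clone A1 and 247.3 and 256.9 CPM in clone A2. All 19 genes for cell division and genome maintenance lay below 0 in both clones, with medians of −0.24 and −0.32, and 5 and 12 were called lower, 26.3% and 63.2% beside the same 25.5% and 40.5%. In clone A2 the vesicle group lay a little nearer to 0 than the median of all members (−0.25), and the cell division group lay lower.

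PARP1, a sensor of DNA breaks (chr1:226360691-226408093), was among the most abundant members. It had 956.6 and 968.9 CPM in WT and 1006 and 1021 CPM in clone A1 of experiments 10 and 11. Later it had 797.8 and 824.1 CPM in WT, 640.0 and 672.5 CPM in clone A1, and 675.2 and 647.5 CPM in clone A2. The 3 steps did not overlap, and the log2 fold changes in experiments 15 and 16 were −0.31 and −0.29. The helicase gene DHX9 had 415.6 and 429.2 CPM in the later WT, 361.1 and 379 CPM in clone A1 and 386.2 and 375.4 CPM in clone A2, with log2 fold changes of −0.19 and −0.15.

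Of 22 listed genes for transcription and chromatin, 21 were measured (ELF3 was not among the counted genes), with medians of −0.22 and −0.24, and 19 and 18 lay below 0. Of these, 4 and 10 were called lower, 19.0% and 47.6% beside 25.5% and 40.5% of all members. NUCKS1, a nuclear protein that binds chromatin (chr1:205712822-205750182), was the most abundant member, with 1040 and 1122 CPM in WT, 883 and 942.2 CPM in clone A1 and 864.8 and 888.2 CPM in clone A2 of experiments 15 and 16. Its log2 fold changes were −0.24 and −0.30. H3-3A, which encodes the histone variant H3.3, as H3-3B does elsewhere, had 458.7 and 452.2 CPM in the later WT, 362.6 and 355.5 CPM in clone A1 and 332.6 and 331.4 CPM in clone A2. Its log2 fold changes were −0.34 and −0.46, and both clones lay below WT without overlap.

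All 24 genes listed for mitochondria and metabolism were measured. In clone A1 all 24 lay below 0, with a median of −0.23 and 8 called lower, and in clone A2 23 did, with a median of −0.27 and 15 called lower. These are 33.3% and 62.5% of the group, beside 25.5% and 40.5% of all members and 4.29% and 9.07% of all genes. TOMM20, an import receptor of the outer mitochondrial membrane (chr1:235109341-235128837), had 616.5 and 644.2 CPM in WT, 448.1 and 464.7 CPM in clone A1 and 407.6 and 414.7 CPM in clone A2 of experiments 15 and 16. Its log2 fold changes were −0.47 and −0.62. GLUL, glutamine synthetase, had a smaller difference, with 452.7 and 460.3 CPM in WT, 423.0 and 404.8 CPM in clone A1 and 417.8 and 419.7 CPM in clone A2, and log2 fold changes of −0.14 and −0.12.

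Of 18 genes listed for immune and complement regulation, 12 were measured. Their medians were −0.08 in clone A1 and −0.30 in clone A2, with 8 and 10 below 0. In clone A1 3 were called lower (MAPKAPK2, TRIM11 and LGALS8), and in clone A2 4 lower (CD46, CD55, TRAF5 and TRIM11) and LGALS8 higher. These counts, too, stand beside 25.5% and 40.5% of all members. CD46, a membrane protein that limits complement, had 110.0 and 111.6 CPM in the later WT, 107.6 and 107.4 CPM in clone A1 and 89.2 and 94.1 CPM in clone A2. The kinase gene MAPKAPK2 had 61.2 and 59.4 CPM in WT, 51.8 and 48.5 CPM in clone A1 and 54.9 and 49.0 CPM in clone A2. This was the group whose medians in the 2 clones lay farthest apart.

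A few members stood apart from the rest. LGALS8 encodes galectin-8, which binds sugars on damaged vesicles (chr1:236518214-236552981). It had 2.80 and 3.37 CPM in WT, 0.891 and 0.459 CPM in clone A1 and 6.46 and 6.89 CPM in clone A2 of experiments 15 and 16. It was thus lower than WT in one clone and higher in the other, and its end overlaps HEATR1, which was much more abundant. SUSD4, which encodes a membrane protein with complement control domains, had 2.17 and 1.81 CPM in WT, 5.99 and 5.25 CPM in clone A1 and 3.59 and 3.59 CPM in clone A2. RGS16, a brake on G protein signals, had 18.2 and 16.1 CPM in WT, 20.4 and 20.2 CPM in clone A1 and 25.8 and 24.3 CPM in clone A2. The homeobox gene LHX4 had 5.90 and 6.59 CPM in WT, 7.88 and 9.45 CPM in clone A1 and 8.61 and 8.34 CPM in clone A2, and the potassium channel gene KCNT2 had 5.34 and 6.04, 6.92 and 8.12, and 7.29 and 7.38 CPM in the same order. These 4 genes were higher than WT in all 4 KO libraries of experiments 15 and 16. In experiments 10 and 11, SUSD4 was instead lower in clone A1, at 0.622 and 0.631 CPM against 1.08 and 0.775 CPM in WT, and the values of RGS16 and LHX4 overlapped. KCNT2 was already higher in clone A1 there, at 6.22 and 6.79 CPM against 4.47 and 3.75 CPM in WT. VASH2, a tubulin carboxypeptidase, lay lower in clone A2 than most members. In experiments 15 and 16 it had 9.83 and 10.5 CPM in WT, 7.56 and 7.55 CPM in clone A1 and 6.10 and 5.13 CPM in clone A2, and in experiments 10 and 11 it had 10.3 and 9.10 CPM in WT and 11.5 and 13.6 CPM in clone A1.

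**Figure D4:**
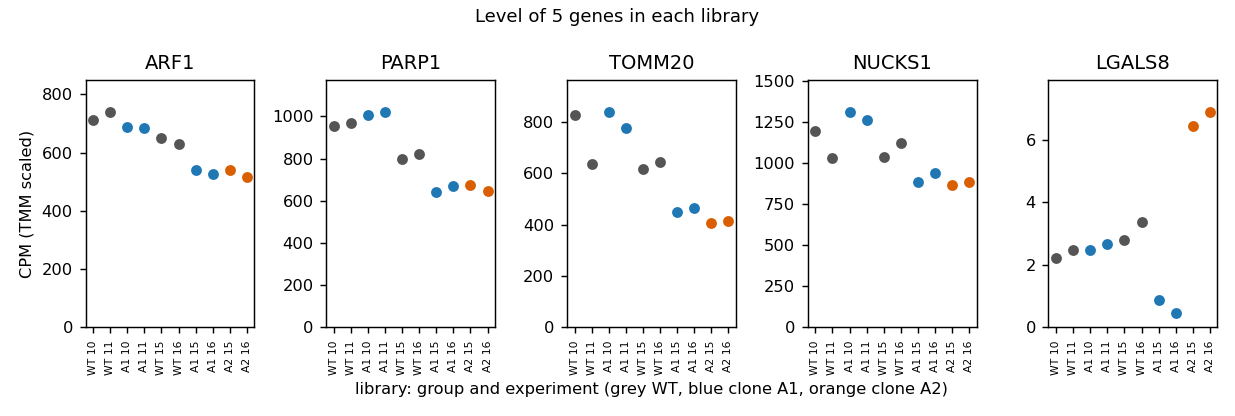
CPM after TMM scaling (vertical axes, each from 0) of ARF1, PARP1, TOMM20, NUCKS1 and LGALS8 in each of the 10 libraries, with WT in grey, clone A1 in blue and clone A2 in orange. ARF1, PARP1, TOMM20 and NUCKS1 are lowest in the 4 KO libraries of experiments 15 and 16, and LGALS8 is low in clone A1 (0.891 and 0.459) and high in clone A2 (6.46 and 6.89) of those experiments.

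The comparison of clone A2 with clone A1 in experiments 15 and 16 was not itself used to choose the stretch, although its libraries were. The members' level differed by −0.035 between the clones (means of −0.23 and −0.19), with SDs of 0.022 and 0.028 within the clones, and the values of the 2 clones met at −0.21. The median log2 fold change was −0.034, with 159 of 259 members below 0. By edgeR with adjustment over all genes, 6 members were called lower in clone A2 and 1 higher, where 3.07% and 1.07% of all genes were called. Of the 427 genes called lower, 241 lie on chromosome 22. With the replicate block 16 members were called lower and 3 higher, 6.18% and 1.16% of the members, beside 5.26% and 3.46% of all genes. With a library left out the lower calls ranged from 1 (without clone A1 of experiment 15) to 14 (without WT of experiment 10 or 11), with 2 without either clone A2 library, and the shares of all genes called lower in these fits were 1.77%, 4.50% and 4.45%, and 2.00% and 1.54%. Those given here were named after their values were seen. TRAF5, an adaptor of TNF receptors, had 30.0 and 27.6 CPM in clone A1 and 19.3 and 19.8 CPM in clone A2 (log2 difference −0.56, SE 0.09, adjusted p = 0.000877 by edgeR). TTC13 (−0.41), EIF2D (−0.34), GPR137B (−0.33) and GNPAT (−0.26) were also lower. LGALS8 was higher in clone A2 by a log2 difference of 3.30 (SE 0.24, edgeR adjusted p = 3.11e-07). ARF1 differed by −0.02 between the clones (SE 0.06, edgeR adjusted p = 0.927). On chromosome 22 the median of clone A2 against clone A1 was −0.51 and on chromosome 4 beyond 20 Mb 0.0073, and the differences from the members were not tested.

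Clone A1 against WT in experiments 10 and 11, gave no lower median. Its clone A1 and WT libraries enter the shift between experiment pairs, so these values too are descriptions. The median was 0.059, and 84 of 259 members lay below 0. The members' level was higher in clone A1 by 0.058 (0.23 against 0.17), which is less than the SD of 0.061 between the 2 WT libraries. By edgeR with adjustment over all genes, 1 member was called lower and 0 were called higher, where 0.165% and 0.0287% of all genes were called. Of the 259 members, 39 had an unadjusted p under 0.05 in either direction, a larger share than the 1476 of all 13920 genes. DESeq2 called 1 member lower and 1 higher, beside 0.374% and 0.079% of all genes. With the replicate block 3 were called lower and 9 higher, beside 2.10% and 0.647% of all genes. Without WT of experiment 10 the calls were 3 and 24, beside 5.44% and 4.34% of all genes, and the median was 0.095. The member called lower was CSRP1, a LIM domain protein of the actin cytoskeleton, which had 25.9 and 26.0 CPM in WT and 13.2 and 16.2 CPM in clone A1 (log2 fold change −0.82, SE 0.10). Without clone A1 of experiment 10 its value was −0.69, and it was not called. Later CSRP1 had 37.1 and 37.1 CPM in WT, 35.1 and 37.3 CPM in clone A1 and 41.7 and 34.6 CPM in clone A2, and these groups overlapped. ARF1 had a log2 fold change of −0.08 (SE 0.06) in experiments 10 and 11, and its 20 neighbours a median of −0.07.

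The clone A1 effect was lower in the later than in the earlier experiment pair for most members. The targeted gene differed too. SAMHD1 had 22.5 and 23.0 CPM in clone A1 of experiments 10 and 11 and 6.44 and 6.15 CPM in experiments 15 and 16. Clone A2 had 23.6 and 20.2 CPM of SAMHD1 in experiments 15 and 16, with a members' median of −0.25 against WT. A relation between SAMHD1 and the members was not tested. The labels name clone A1 in both pairs, and whether the same stock of cells was used was not tested, so all differences of clone A1 between pairs hold for the libraries so labelled. The difference of the effects had a median of −0.28 and was below 0 for 226 members. It was called below 0 for 39 members and above 0 for 3 by edgeR, beside 0.941% and 1.56% of all genes, and with the replicate block for 103 and 5, beside 4.09% and 4.87%. Leaving out any library of experiments 15 and 16 of WT or clone A1, or clone A1 of experiment 10 or 11, left 4 to 19 lower calls, where 0.223% to 0.553% of all genes were called lower. Leaving out WT of experiment 10 gave 91, where 3.71% were. For ARF1 the difference was −0.18 (SE 0.08), and for its neighbours the median was −0.22.

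WT itself had lower values of the members in the later than in the earlier experiments. The members' level was 0.21 and 0.13 in the earlier and 0.0023 and 0.043 in the later WT libraries, without overlap, and the median log2 fold change was −0.15, with 205 of 259 members below 0. By edgeR, 59 members were called lower and 4 higher, where 7.74% and 8.61% of all genes were called. With the replicate block 96 were called lower, beside 14.1% of all genes, and without WT of experiment 15 or 16 the count was 18 or 23, beside 3.06% and 2.22%. As the shift between experiment pairs belongs to the choice of the stretch, these counts and the values of single genes describe it and test nothing. The later WT libraries also enter the comparisons with the clones. The experiments differ in everything that was done at another time, so a change of the cells and a change of the procedure cannot be told apart here.

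ARF1 was among the members called lower in the later WT (−0.18, SE 0.06). It was not called in the fit of the WT and clone A1 libraries without clone A2. Nor was it called in 7 of 10 fits with a library left out (−0.22 to −0.16 over all 10). These 7 were without WT of experiment 11, 15 or 16, clone A1 of experiment 10 or 11, or either clone A2 library. Of its neighbours, COQ8A (−0.34), PSEN2 (−0.40), SNAP47 (−0.35), TRIM11 (−0.26), ITPKB (−0.26), RNF187 (−0.23), H2BC26 (−1.18) and H2AC25 (−0.50) were called lower, 8 of the 20, and none higher. H2AC25 was not called in the fit without the clone A2 libraries. It was also not called in 9 of 10 fits with a library left out, all but the one without WT of experiment 10. Its value ranged from −0.78 to −0.17. RNF187 lost its call in 5 (−0.29 to −0.17), without WT of experiment 11, 15 or 16 or clone A1 of experiment 10 or 11. TRIM11 and H2BC26 did so without WT of experiment 11, 15 or 16, ITPKB without WT of experiment 15 or 16, PSEN2 without WT of experiment 16 and SNAP47 without WT of experiment 15. Of all members 22.8% were called lower in this comparison, and among the role groups 8 of 19 cell division genes were called lower, among them CENPF, a kinetochore protein, and the nuclear pore genes TPR and NUP133. Of the others, 5 of 18 genes for vesicle traffic, 4 of 21 for transcription, 3 of 24 for mitochondria and metabolism and 3 of 12 for immune regulation were called lower, and none of these 5 groups had a gene called higher. PARP1 was called lower (−0.25, SE 0.06), but not without WT of experiment 15 or 16, and NUCKS1 (−0.04), TOMM20 (−0.22) and H3-3A (−0.10) were not called. NMNAT2, an enzyme of NAD synthesis and one of the members that overlap another coding gene, had the largest change, from 6.14 and 6.10 CPM to 1.03 and 2.12 CPM (−1.92, SE 0.24). The 4 members called higher were SUSD4 (1.09), BRINP3 (1.07), CSRP1 (0.51) and KCNT2 (0.47), 1.54% of the members beside 8.61% of all genes. With a library left out, 2 to 12 members were called higher. KCNT2 was not called without WT of experiment 11, 15 or 16. BRINP3, close to the limit of 0.05, was not called under RLE scaling, the count filter, DESeq2 or the fit without the clone A2 libraries. It was also not called in 9 of 10 fits with a library left out (0.55 to 1.41 over all 10). The exception was the fit without WT of experiment 15.

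By position, this difference in WT was less even than that of the clones. Its medians were −0.10 from 180 to 200 Mb, −0.13 from 200 to 220 Mb and −0.19 from 220 to 240 Mb. From 180 to 200 Mb the WT levels overlapped, at 0.16 and 0.040 in experiments 10 and 11 and −0.034 and 0.047 in experiments 15 and 16. They did not overlap from 200 to 220 Mb or from 220 to 240 Mb. The running median over 15 genes was lowest at CR1L (−0.30, at 207.6 Mb) and rose to 0.04 at ESRRG (216.5 Mb), and it was below 0 at 254 of 263 places. In steps of 5 Mb the median was −0.20 from 205 to 210 Mb, 0.07 over the 11 genes from 215 to 220 Mb and −0.24 from 225 to 230 Mb. The 32 genes from 170 to 180 Mb had a median of −0.09, and the 18 genes from 240 to 245 Mb −0.026. In both of these flanks the levels of the earlier and later WT libraries overlapped.

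**Figure D5:**
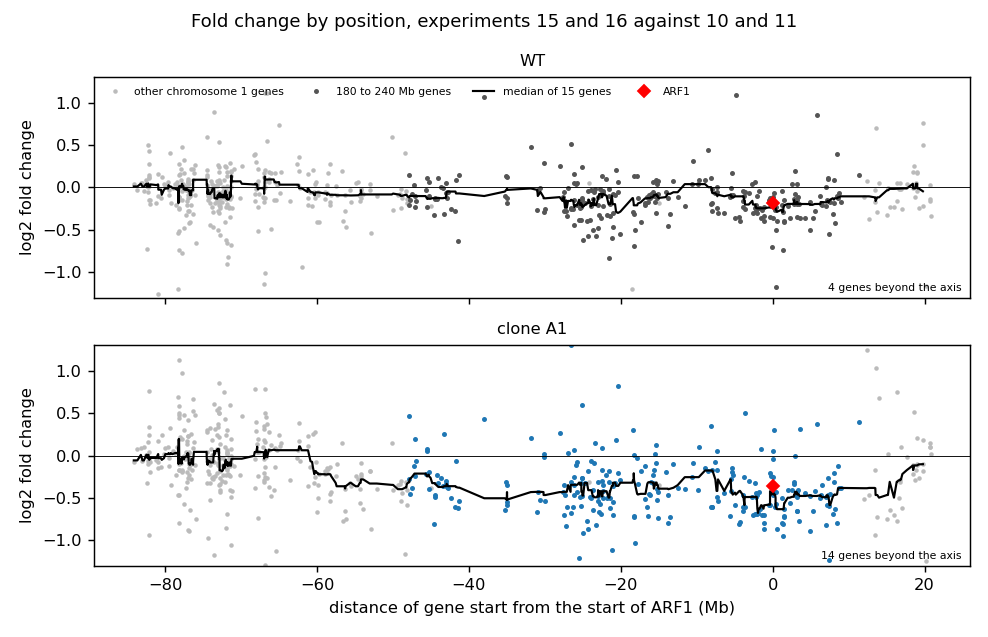
Log2 fold change of each chromosome 1 gene in experiments 15 and 16 against experiments 10 and 11 (vertical axis) by the distance of its start from the start of ARF1 (horizontal axis, Mb), for WT and for clone A1. Coloured points are the 259 genes from 180 to 240 Mb, grey points other genes, the line the median over 15 genes and the diamond ARF1. In clone A1 the line stays between −0.68 and −0.17 over the stretch, and in WT between −0.30 and 0.04.

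In clone A1 the same 2 pairs of experiments differed most. The median was −0.43, a fold of 0.743, with 227 of 259 members below 0. Of the members 178 were called lower by edgeR and 6 higher, beside 19.0% and 20.4% of all genes. The median was −0.34 from 180 to 200 Mb, −0.37 from 200 to 220 Mb and −0.48 from 220 to 240 Mb, while the 247 genes from 140 to 165 Mb had −0.035. ARF1 had −0.36 (SE 0.06), and its 20 neighbours a median of −0.52. In this contrast ARF1 lay nearer to 0 than the median of the genes around it. The full order, with all 4 earlier libraries above both later WT libraries and these above all 4 later KO libraries, held for 94 of 259 members, where 7.36% of all genes had it. The opposite order held for 2 members, where 8.18% of all genes had it. Chromosome 4 beyond 20 Mb, with 419 genes, moved the other way, with medians of 0.15 and 0.15 in clones A1 and A2 against WT and 0.40 in the later against the earlier WT.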

How the data were processed

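The authors prepared stranded poly(A) libraries (TruSeq), sequenced them as paired reads of 150 bases and aligned them to GRCh38, using HISAT2 with NCBI gene models. StringTie is also named in the submitters' processing notes. The deposited values are raw read counts per NCBI gene identifier, from which the authors had removed genes with a count of 0 in any library. The counting program and its strand setting are not given in the sources used here, so reads of the 40 members that overlap another coding gene may be shared. The labels name the Maxwell kit for extraction and the study's methods another.

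Symbols and positions came from the NCBI gene table for GRCh38 (13883 of 13920 genes matched). For positions and distances along the chromosome, the start of a gene is its lower coordinate on either strand. Counts were fitted in R 4.3.3 with edgeR 4.0.16 (TMM factors 0.976 to 1.04, robust quasi-likelihood), in 1 fit of 5 groups: WT and clone A1 of experiments 10 and 11, and WT, clone A1 and clone A2 of experiments 15 and 16. P-values were adjusted by the Benjamini-Hochberg method over all genes at 0.05. Log2 CPM used a prior count of 2. No 2 of the 10 libraries held the same counts within sampling noise (45 pairs, chi-square from 6.74 to 149.8 per degree of freedom). The lowest count of a member was 3, and no low-count filter was applied, so all 259 were tested. Alternatives were RLE scaling, a mean count of at least 10, DESeq2 1.42.0, the libraries of the contrast, and the experiment number as a replicate block. Further ones were each library left out, members of at least 5 CPM, the left-out symbols kept, and a window of 190 to 230 Mb. The libraries of the contrast were all libraries of the experiment pair, or, for differences between pairs, all WT and clone A1 libraries. The methods were tested on simulated data.

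The labels give the same experiment number to different groups, and the pairing by experiment rests on these labels alone. The main fit had no block. After the means of WT, clone A1 and clone A2 were removed, log2 CPM of WT and clone A1 correlated within experiments 10, 11, 15 and 16 at 0.468, 0.474, 0.526 and 0.524, and clone A2 with WT or clone A1 at 0.0080 to 0.159. Once the mean of the experiment pair was removed too, as in the 5 groups of the fit, WT and clone A1 correlated at 0.0844 in experiments 10 and 11 and 0.134 in experiments 15 and 16, and clone A2 with WT at 0.151 and with clone A1 at 0.103.

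Named genes were ARF1, its 10 neighbours on each side, the 6 most abundant members, the 4 lowest and 4 highest fold changes without overlap of each clone contrast among members of at least 1 CPM, the 2 most abundant members of each list and the 5 genes inside and outside each edge. The members, lists and rules were chosen with earlier results of these data known. Genes named outside this rule were chosen after their values were seen. Some genes that the rule names are not reported here.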

Additional observations from a re-analysis of the deposited data

Results flagged for a closer look

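Among the named members, the level of TOMM20 in the 4 WT libraries had 1 library apart from the rest, experiment 10 with 828.9 CPM against 616.5 to 644.2 CPM in the other 3 (gap over range 0.852). In all, 110 groups of 4 libraries were examined, and chance alone marks about 1 group in 20.

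The effect of clone A1 against WT differed between the experiment pairs for 13 named members by edgeR's test of the difference, with adjustment over all genes. It was lower in experiments 15 and 16 for LGALS8 (−2.31), VASH2 (−0.81), HEATR1 (−0.69), TOMM20 (−0.60), COQ8A (−0.52), CDC42BPA (−0.46), NUCKS1 (−0.45), ITPKB (−0.44), SRP9 (−0.39), PARP1 (−0.38) and H3-3A (−0.37), all on the log2 scale. It was higher for SUSD4 (2.07) and CSRP1 (0.79). The stretch was chosen for values that enter this difference, so these 13 describe it.

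Clone A2 and clone A1 lay on opposite sides of WT, and differed from each other by edgeR, for LGALS8 (3.30 higher in clone A2 on the log2 scale, edgeR adjusted p = 3.11e-07).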

How the results depend on the processing

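The median log2 fold changes of the members moved by less than 1 SD of the library level under RLE scaling, the count filter, DESeq2, the block, the libraries of the contrast, and the other choices of members. With each library left out they ranged from −0.25 to −0.20 (clone A1 against WT, experiments 15 and 16), −0.28 to −0.23 (clone A2 against WT), −0.062 to −0.010 (clone A2 against A1), 0.031 to 0.095 (clone A1 against WT, experiments 10 and 11), −0.33 to −0.25 (difference of the clone A1 effects), −0.18 to −0.12 (WT between pairs) and −0.43 to −0.40 (clone A1 between pairs). Counts of members called lower depended on the fit. In the order of these comparisons, they were 120, 148, 16, 3, 103, 96 and 194 with the replicate block, and every call made without the block was kept. With the 6 libraries of experiments 15 and 16 alone they were 101 for clone A1 against WT and 11 for clone A2 against A1. With a library left out they ranged from 22 to 106, 56 to 137, 1 to 14, 0 to 3, 4 to 91, 18 to 60 and 152 to 188. For A1 against WT in experiments 15 and 16 the count was 106 without WT of experiment 10 or of experiment 11. For clone A2 against A1 it was 14 without either of these, 1 without the A1 library of experiment 15 and 2 without either clone A2 library. For A1 against WT in experiments 10 and 11 it was 3 without the WT library of experiment 10, and 0 and 2 without the A1 libraries of experiments 10 and 11. For the difference of the effects it was 4 and 8 without clone A1 of experiments 10 and 11, 16 and 5 without WT of experiments 15 and 16, and 8 and 19 without clone A1 of these. The log2 difference of ARF1 between the clones was 0.016 without clone A2 of experiment 16 and −0.051 without clone A2 of experiment 15. ARF1 minus the median of its neighbours ranged from 0.066 to 0.13 for clone A1 and from −0.015 to 0.011 for clone A2 in experiments 15 and 16. The cause of these changes was not tested. With 2 libraries per group, the SE of clone A1 against WT was 0.29 for WNT3A, at about 1 to 2 CPM, where the median over members is 0.091.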
